A study of Mus musculus with 6 samples.

Results

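Lcn2 and 8 other genes of acute-phase and complement proteins were followed in cultured heart muscle cells after a hairpin against Gdf11. They are the 9 genes named Lcn2, Saa3, Hp, Ptx3, Cp, Steap4, C3, C4b and Cfb, each with 1 row among the 54532 genes of the deposited table. The list was drawn up with differences between these same libraries already in view, so the levels and fold changes of the 9 genes are a description, and no p-value is given for them.

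The cells were primary ventricular cardiomyocytes of C57BL/6 mice taken at 1 day of age. In the 3 shGDF11 libraries the cells carried a short hairpin RNA against Gdf11, and in the 3 control libraries a control hairpin that the labels call both sh-nc and sh-Vector. Both groups received the hairpin at a multiplicity of infection of 200 and were harvested after 48 h. The labels do not say whether the 3 libraries of a group came from separate cultures or pups, so the spread behind each p-value may be technical. The vector and target site of the hairpin were not used here.

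Acute-phase proteins are secreted when cytokines such as interleukin 6 and interleukin 1 act on a cell. The transcription factors C/EBP, STAT3 and NF-kB drive many of their genes. The liver makes most of them, and other cells, including those of the injured heart, make some locally. Complement is a cascade of plasma proteins: the classical pathway runs through C1q, C4 and C2, and the alternative pathway through factor B. Both form enzymes that cut C3, the protein on which the pathways meet.

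Each library held 15267083 to 16152910 reads in the listed genes. Gdf11 itself had 0.614, 0.601 and 0.778 FPKM (fragments per kilobase of gene, scaled to library depth) in the shGDF11 libraries, against 2.76, 2.30 and 2.31 FPKM in the control libraries, a log2 fold change of -1.34 (limma adjusted p = 0.00079). The 8 cardiomyocyte markers summed to 6712 to 7023 FPKM in shGDF11 and 8209 to 8480 FPKM in control, the most of any cell type list. They did not move together. At a limma adjusted p under 0.05, 4 fell (Actc1, Ryr2, Actn2 and Pln), 2 rose (Tnni3 and Myl2) and 2 were not called. Of all genes tested, 13.1% fell and 14.4% rose. Of the called markers, only Actn2 kept its call under all 15 alternative settings. Fibroblast markers (368 to 386 against 291 to 346 FPKM), smooth muscle markers (407 to 413 against 1011 to 1090 FPKM), macrophage markers (118 to 129 against 148 to 171 FPKM), endothelial markers (44.8 to 47.1 against 63.9 to 68.0 FPKM) and mesothelial markers (45.5 to 46.0 against 54.7 to 61.6 FPKM) were also present, each given for shGDF11 against control. A sum follows the most abundant genes of its list. The smooth muscle actin gene Acta2 alone averaged 370 FPKM in shGDF11 and 993 FPKM in control, and 4 of the 8 smooth muscle markers were not called. The keratin genes Krt8 and Krt19 carry most of the mesothelial sum, while the 7 tested genes of that list had a median log2 fold change of 0.21. In such mixed cultures, fewer cells of a type and less RNA per cell cannot be told apart.

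Promoter sequences were available from RefSeq (GRCm38.p6) for 6 of the 9 genes: Lcn2, Saa3, Ptx3, Steap4, C3 and Cp. The 250 bases before the start site of each were searched on both strands for 5 motifs. The C/EBP letters TTNNGNAA were found in all 6 genes, and 36.8% of all 32851 promoter windows of that length hold them. Of the 6, Steap4 alone held the NF-kB consensus (7.25% of all windows) and the STAT letters TTCNNNGAA (7.02% of all windows). None of the 6 held the HIF letters ACGTG (16.6% of all windows) or the SMAD letters CAGAC (42.2% of all windows). These motifs are short and loose, and a match is not evidence of a bound site. The 5 windows below are shown because they belong to 3 genes that were lower, 1 that was higher and 1 whose groups overlapped. They are printed 5′ to 3′ on the strand of the gene, without bases next to the start site that GENCODE annotates as exon, and capitals mark C/EBP, NF-kB or STAT matches.
Lcn2, chr2:32387798-32387989, minus strand: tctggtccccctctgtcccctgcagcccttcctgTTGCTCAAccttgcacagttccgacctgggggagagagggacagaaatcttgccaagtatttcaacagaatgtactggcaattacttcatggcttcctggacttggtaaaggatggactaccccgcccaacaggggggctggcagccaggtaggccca
Saa3, chr7:46715701-46715926, minus strand: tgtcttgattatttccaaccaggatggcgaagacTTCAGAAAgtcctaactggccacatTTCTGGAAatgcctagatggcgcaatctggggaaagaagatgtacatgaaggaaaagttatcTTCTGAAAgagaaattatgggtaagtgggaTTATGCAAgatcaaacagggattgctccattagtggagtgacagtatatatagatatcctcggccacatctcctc
Ptx3, chr3:66219637-66219886, plus strand: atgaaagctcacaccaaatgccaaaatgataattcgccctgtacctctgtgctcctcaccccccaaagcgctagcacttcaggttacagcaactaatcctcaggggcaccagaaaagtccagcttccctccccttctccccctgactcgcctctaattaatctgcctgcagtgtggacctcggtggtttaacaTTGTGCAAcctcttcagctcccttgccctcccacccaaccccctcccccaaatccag
Steap4, chr5:7960222-7960456, plus strand: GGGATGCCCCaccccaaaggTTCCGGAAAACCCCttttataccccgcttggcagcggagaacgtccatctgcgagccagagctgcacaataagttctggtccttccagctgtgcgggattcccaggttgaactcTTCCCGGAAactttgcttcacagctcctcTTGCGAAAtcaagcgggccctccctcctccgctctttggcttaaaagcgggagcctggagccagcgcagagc
C3, chr17:57228137-57228386, minus strand: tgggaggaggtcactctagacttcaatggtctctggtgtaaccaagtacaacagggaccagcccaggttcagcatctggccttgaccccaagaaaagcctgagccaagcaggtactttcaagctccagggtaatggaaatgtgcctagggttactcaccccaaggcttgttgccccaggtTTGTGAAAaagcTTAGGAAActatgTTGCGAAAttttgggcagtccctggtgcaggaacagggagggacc
In the Lcn2 window 72.4% of the printed bases also lie in an exon of a longer Lcn2 transcript. In Steap4 the second NF-kB match overlaps the first C/EBP match, so they form 1 run of capitals.

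Of the 9 genes, Lcn2, Saa3, Hp and Ptx3 were lower in every shGDF11 library than in any control library, and Steap4 and C4b were higher in every one. The groups overlapped for C3, Cp and Cfb. The limma fit across all genes left out those whose mean over the 6 libraries was under 0.5 FPKM, and so tested 8 of the 9, all but Cfb. Of these 8, 4 fell and 2 rose at an adjusted p under 0.05, against 13.1% of all 15418 tested genes that fell and 14.4% that rose. In 6 of the 8 the libraries of one group all lay to one side of the other, as in 45.8% of tested genes. A log2 fold change of -1 or below was found for 3 (Lcn2, Saa3 and Hp), against 1.48% of tested genes, and 1 or above for 0, against 1.89%. Both counts depend on the added 0.5 FPKM. With 0.1 FPKM added C4b was at 1.08, and with 1 FPKM added Saa3 and Hp were at -0.97 and -0.96. Of all calls 52.4% were rises, and 66.2% were with values rescaled to TPM. Saa3, at a mean of 0.439 FPKM in shGDF11, passed the filter through its control level. The 9 genes were chosen on this comparison, and nothing is read from these counts. The median log2 fold change was -0.56 over the 8 genes, beside 0.01 over all tested genes.

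**Figure D1:**
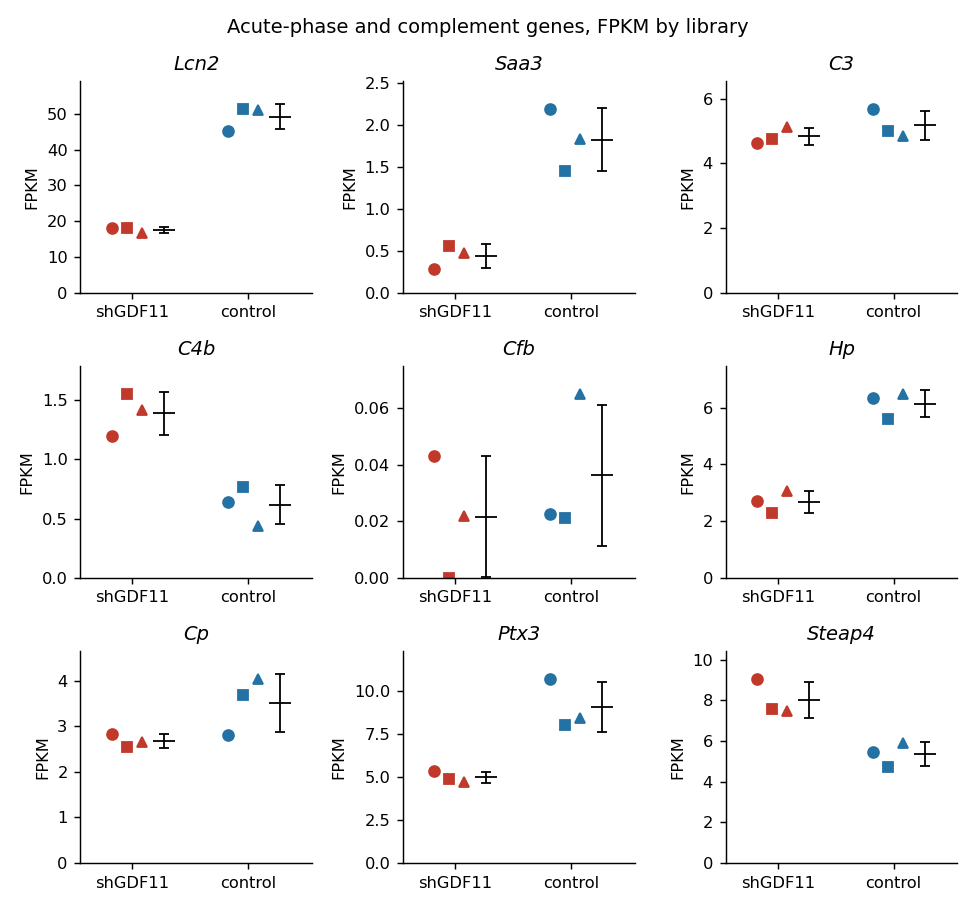
FPKM of the 9 genes in each library, on axes that start at 0 and differ between panels. Points are libraries (circle, square and triangle for replicates 1, 2 and 3), and the bar beside each group is its mean ± SD (n = 3). Lcn2, Saa3, Hp and Ptx3 lie lower in all 3 shGDF11 libraries, Steap4 and C4b lie higher, and C3, Cp and Cfb overlap.

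Lcn2 encodes lipocalin 2, a secreted protein that binds the iron-carrying siderophores of bacteria. The gene (ENSMUSG00000026822) sits at chr2:32384633-32388252 (GRCm38, minus strand). It had 18.0, 18.2 and 16.6 FPKM in the shGDF11 libraries, against 45.3, 51.5 and 51.0 FPKM in the control libraries. The highest shGDF11 library was thus far under the lowest control library, and the coefficient of variation was 4.89% in shGDF11 and 7.01% in control. The mean was 17.6 ± 0.859 FPKM in shGDF11 and 49.2 ± 3.45 FPKM in control (SD, n = 3 each, as for all means below), or 35.7% of control. The log2 fold change of FPKM + 0.5 was -1.46 ± 0.0725 (SE), and it lay between -1.52 and -1.39 under all 15 alternative settings. Lcn2 was by far the most abundant of the 9 genes, with 40.0% to 42.9% of their summed FPKM in shGDF11 libraries and 57.2% to 63.7% in control libraries. Its level passed that of 87.3% of protein-coding genes in shGDF11 and of 96.0% in control.

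Saa3 encodes a serum amyloid A that mice make mainly outside the liver. The gene (ENSMUSG00000040026) sits at chr7:46711998-46715700 (minus strand). It had 0.280, 0.562 and 0.476 FPKM in the shGDF11 libraries (12, 24 and 20 reads), against 2.20, 1.45 and 1.83 FPKM in the control libraries (90, 63 and 78 reads). No shGDF11 library reached the lowest control library. The gene passed the filter of 0.5 FPKM through its control level, so its fall is not read as a result. The mean was 24.0% of control, the lowest share among the 8 genes tested. The ratio of depth-scaled reads, shGDF11 over control, was 0.241 (95% exact interval 0.177 to 0.324, counting error only). With the added 0.5 FPKM its log2 fold change was -1.31 ± 0.185 (SE). It was -0.97 with 1 FPKM added, -1.86 with 0.1 FPKM added and -2.06 by limma voom on reads, since the added constant damps the change of a gene at so low a level.

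The neighbouring serum amyloid genes were near the limit of detection. Saa1 had 0 to 1 reads in shGDF11 libraries and 1 to 3 in control libraries. Saa2 had 0 reads in every shGDF11 library and 5, 1 and 0 in the control libraries. Saa1 lies 24.8 kb from Saa3. Of all runs of 50 bases in Saa3 transcripts, 3.57% also occur in transcripts of other genes.

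Hp encodes haptoglobin, which binds free haemoglobin in plasma. The gene (ENSMUSG00000031722) sits at chr8:109575128-109579172 (minus strand). It had 2.69, 2.28 and 3.05 FPKM in the shGDF11 libraries, against 6.34, 5.60 and 6.49 FPKM in the control libraries. The groups stood apart, at 2.67 ± 0.384 FPKM in shGDF11 and 6.14 ± 0.475 FPKM in control. The log2 fold change was -1.07 ± 0.11 (SE), between -1.20 and -0.96 over 14 alternatives.

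Ptx3 encodes the long pentraxin PTX3, a soluble pattern recognition protein that can bind C1q. The gene (ENSMUSG00000027832) sits at chr3:66219910-66225805 (plus strand). It had 5.33, 4.90 and 4.69 FPKM in the shGDF11 libraries, against 10.7, 8.03 and 8.41 FPKM in the control libraries. All 3 shGDF11 libraries were lower, and control replicate 1 was the highest of the 6. Its log2 fold change was -0.79 ± 0.114 (SE), and without control replicate 1 it was -0.67 and still called.

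Steap4 encodes a metalloreductase that reduces iron and copper at cell membranes. The gene (ENSMUSG00000012428) sits at chr5:7960457-7982213 (plus strand). It had 9.05, 7.57 and 7.45 FPKM in the shGDF11 libraries, against 5.45, 4.72 and 5.89 FPKM in the control libraries. Each shGDF11 library was higher than each control library, with means of 8.02 ± 0.891 FPKM in shGDF11 and 5.35 ± 0.592 FPKM in control. On the log2 scale the change was 0.54 ± 0.108 (SE), between 0.46 and 0.66 over 15 alternatives, and the rise was called under each of them.

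Cp encodes ceruloplasmin, the copper-carrying ferroxidase of plasma. The gene (ENSMUSG00000003617) sits at chr3:19957054-20009145 (plus strand). It had 2.83, 2.53 and 2.66 FPKM in the shGDF11 libraries, against 2.81, 3.68 and 4.04 FPKM in the control libraries. Control replicate 1 lay within the shGDF11 range, and the other 2 control libraries lay above it. Cp had a log2 fold change of -0.33 (95% interval -0.63 to -0.02) and was not called over all genes. Without control replicate 1 it was -0.46 and was called as lower, as it was by limma voom on reads (-0.38). Of the exon bases of Cp, 1.13% lie opposite Hps3.

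**Figure D2:**
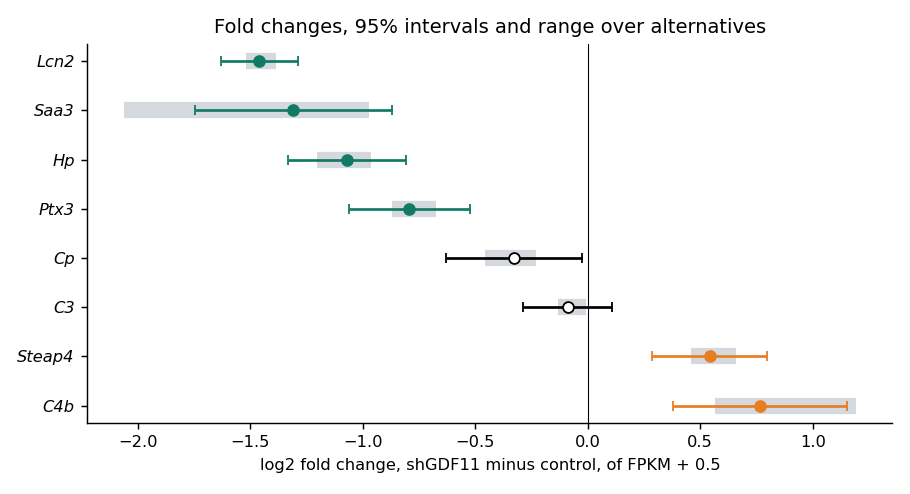
Log2 fold change (shGDF11 minus control, of FPKM + 0.5) of the 8 genes tested. Points with bars are the fitted change and its 95% interval (filled where called over all genes, open where not), and grey bands span the alternative settings, of which limma voom uses reads with no added FPKM. Lcn2, Saa3, Hp and Ptx3 lie below 0, C3 and Cp are open, and Steap4 and C4b lie above 0.

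The complement genes of the list did not move as a block. C3 (ENSMUSG00000024164, chr17:57203970-57228136, minus strand) had 4.61, 4.76 and 5.12 FPKM in the shGDF11 libraries, against 5.69, 5.02 and 4.84 FPKM in the control libraries. The groups overlapped, and the log2 fold change was -0.09 (95% interval -0.29 to 0.11). It was called under none of 15 alternatives, over which it ran from -0.13 to -0.01.

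C4b encodes C4, which is cut by the C1 complex and joins C2 in the classical pathway. The gene (ENSMUSG00000073418) sits at chr17:34728380-34743882 (minus strand). It had 1.20, 1.55 and 1.41 FPKM in the shGDF11 libraries (112, 145 and 130 reads), against 0.637, 0.769 and 0.441 FPKM in the control libraries (57, 73 and 41 reads). All shGDF11 libraries were higher. The ratio of depth-scaled reads, shGDF11 over control, was 2.25 (95% exact interval 1.88 to 2.71, counting error only). C4b had a log2 fold change of 0.77 ± 0.163 (SE), and the call was lost without shGDF11 replicate 2 (0.70) or shGDF11 replicate 3 (0.75). At this low level the change depends on the added constant. It was 0.57 with 1 FPKM added, 1.08 with 0.1 FPKM added, 1.09 with TPM and 1.19 by limma voom on reads.

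The level of C4b depends on how reads of its copy were counted. Of the runs of 50 bases in C4b transcripts, 34.6% also occur in C4a, which lies 65.2 kb away. C4a had 9, 10 and 15 reads in the shGDF11 libraries and 25, 12 and 11 in the control libraries, so the groups of C4a overlapped.

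Cfb encodes factor B, the protease of the alternative pathway. The gene (ENSMUSG00000090231, chr17:34856374-34862518, minus strand) had 2, 0 and 1 reads in the shGDF11 libraries, against 1, 1 and 3 reads in the control libraries. All 6 libraries were at or under the floor of 3 reads, so no fold is given. Of its exon bases, 79.5% also belong to Gm20547, an annotated gene on the same strand that had 0 reads in every library. How reads common to both genes were counted is not given in the sources used here, and these reads do not show that Cfb RNA was absent. C2, which works with C4, had 36, 45 and 48 reads in the shGDF11 libraries, against 17, 21 and 29 in the control libraries. Its groups did not overlap, but it was not called (log2 fold change 0.47, limma adjusted p = 0.0932). It was called as higher without the variance trend and by limma voom on reads. With a mean of 0.355 FPKM in control, C2 passed the filter through its shGDF11 level, so those calls are not read as a result.

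Levels per length put the genes in a different order in each group. In shGDF11 it ran Lcn2, Steap4, Ptx3, C3, Cp, Hp, C4b, Saa3 and Cfb. The ranges of neighbours overlapped there for Ptx3 and C3 and for Cp and Hp. In control the order was Lcn2, Ptx3, Hp, Steap4, C3, Cp, Saa3, C4b and Cfb. The ranges of Hp and Steap4 overlapped in control, as did those of Steap4 and C3. Summed over the 9 genes, the level was 41.5 to 44.0 FPKM in shGDF11 libraries and 79.1 to 83.0 FPKM in control libraries. Without Lcn2 the sums were 24.2 to 26.0 FPKM in shGDF11 and 29.3 to 33.8 FPKM in control.

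Lcn2 is also a granule protein of neutrophils, and acute-phase genes are typical of hepatocytes, so markers of both were examined beside it. Elane was at 0 in all 6 libraries. Mpo was at 0 to 0.0178 FPKM in shGDF11 and 0 to 0.0186 FPKM in control, and Ly6g at 0 in shGDF11 and 0 to 0.191 FPKM in control. The 8 neutrophil markers together summed to 1.35 to 3.36 FPKM in shGDF11 and 3.23 to 4.03 FPKM in control. Of the 2 neutrophil markers tested, Camp, an antimicrobial peptide gene, fell to 1.30 ± 0.46 FPKM in shGDF11, against 3.17 ± 0.607 FPKM in control (limma adjusted p = 0.0132). The other, S100a8, was at 0.592 ± 0.577 FPKM in shGDF11 and 0.439 ± 0.315 FPKM in control, with overlapping groups, and was not called (limma adjusted p = 0.814). The part of neutrophil markers in the difference of Lcn2 was not tested. Single marker genes were named after their values were seen. The hepatocyte gene Alb was at 0 to 0.0265 FPKM in shGDF11 and 0 to 0.105 FPKM in control, and Tat was at 0 in all 6 libraries. Of the 8 hepatocyte markers, 2 passed the filter and were tested, Ttr and Ahsg (log2 fold changes -0.26 and 0.11), and neither was called. The 8 markers summed to 3.27 to 3.92 FPKM in shGDF11 and 2.85 to 4.06 FPKM in control.

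**Figure D3:**
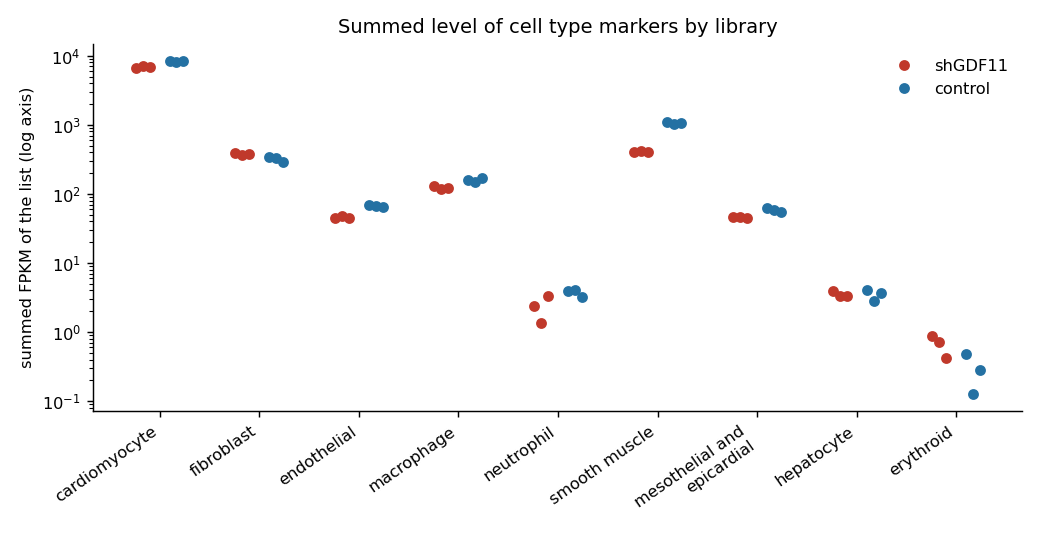
Summed FPKM of each cell type marker list (log axis), 1 point per library, shGDF11 to the left of control. Cardiomyocyte markers are the highest. Neutrophil, hepatocyte and erythroid lists lie under 5 FPKM in every library. The sums of the cardiomyocyte, smooth muscle, endothelial, macrophage and mesothelial lists are lower in every shGDF11 library than in any control library, and that of the fibroblast list is higher. Each sum follows its most abundant genes, and not every gene of a list moved with its sum.

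Beyond the 9 genes, 5 lists of related genes were examined in the same fit. Their counts, and those of the cell type markers, are to be read beside the 14.4% of all tested genes that rose and the 13.1% that fell. All were chosen with earlier results of these data known.

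Of 26 further complement components, 10 were tested, of which 2 fell and 1 rose. Their median on the log2 scale was -0.14. C1qb and C1qa, subunits of the C1q that starts the classical pathway, fell. C1qb was at 6.46 ± 0.836 FPKM in shGDF11 and 11.7 ± 0.211 FPKM in control (log2 fold change -0.81, limma adjusted p = 0.00163). C1qa was at 5.68 ± 1.07 FPKM in shGDF11 and 9.51 ± 0.881 FPKM in control (limma adjusted p = 0.00951). The third subunit gene, C1qc, was at 3.98 and 5.31 FPKM in shGDF11 and control and was not called (limma adjusted p = 0.0727). Without shGDF11 replicate 3 it was called as lower. C1q is made mainly by macrophages. Of the 6 macrophage markers tested, 3 fell (Lyz2, Mrc1 and C1qa, itself a C1q gene) and 0 rose, against 13.1% and 14.4% of all tested genes. The call of Lyz2 held under all 15 alternatives, and that of Mrc1 was lost under 8 of 14, including without any 1 shGDF11 library or control replicate 2 or 3. Csf1r was at 2.18 to 2.47 FPKM in shGDF11 and 2.25 to 2.53 FPKM in control. The part of macrophage markers in the fall of C1q genes was not tested. Colec11, a collectin of the lectin pathway, rose to 2.04 ± 0.284 FPKM in shGDF11, against 0.874 ± 0.135 FPKM in control (limma adjusted p = 0.00435). Masp1, a protease of the lectin pathway, was at 8.22 ± 0.389 FPKM in shGDF11 and 8.96 ± 0.46 FPKM in control, with overlapping groups, as were C1ra and Cfp, and none of these was called. The components C8b, Cfd, Mbl1 and Fcnb had 0 reads in all 6 libraries.

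Of 26 complement regulators and receptors, 14 were tested, of which 5 rose and 1 fell (median log2 fold change 0.17). Cr1l (Crry), a membrane regulator in rodents, rose to 10.9 ± 0.815 FPKM in shGDF11, against 7.83 ± 1.06 FPKM in control (limma adjusted p = 0.0199). Clu, clusterin, which binds late complement complexes, rose to 762 ± 11.2 FPKM, against 621 ± 21.2 FPKM in control (limma adjusted p = 0.0143). Serping1, the C1 inhibitor, had a log2 fold change of 0.18 (limma adjusted p = 0.0463, up to 0.154 over 15 alternatives). Itgb2, a subunit of the leukocyte receptors for C3 fragments, rose with a log2 fold change of 0.42 (limma adjusted p = 0.0105). Cd93, a receptor found on endothelium, fell to 9.36 ± 0.215 FPKM, against 15.1 ± 1.38 FPKM in control (limma adjusted p = 0.00166), and 5 of the 8 endothelial markers also fell, against 13.1% of all tested genes. Their part in the fall of Cd93 was not tested. Without any 1 shGDF11 library 1 of the regulators rose, and without control replicate 2 there were 3. Itgb2 kept its call under all 15 alternatives. Cd55, which speeds the decay of C3-cutting enzymes, was at 10.7 ± 0.557 FPKM in shGDF11 and 8.27 ± 1.27 FPKM in control. It was not called (limma adjusted p = 0.051), and neither was Cd59a (limma adjusted p = 0.0709). Cd55 was called as higher under 3 of 15 alternatives, and Cd59a under none.

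Of 30 other acute-phase proteins, 14 were tested, of which 3 rose and 2 fell (median log2 fold change -0.20). Serpina3n, a serine protease inhibitor of the acute phase, fell to 6.65 ± 0.135 FPKM in shGDF11, against 9.19 ± 0.273 FPKM in control (limma adjusted p = 0.00275). Serpina3g fell by 0.43 on the log2 scale (limma adjusted p = 0.0355). That call was lost without shGDF11 replicate 2 or 3 and without control replicate 1 or 2, and its limma adjusted p ran from 0.029 to 0.116 over 14 alternatives. Itih4, an inter-alpha-trypsin inhibitor chain, rose to 3.43 ± 0.0769 FPKM, against 1.30 ± 0.124 FPKM in control (limma adjusted p = 0.00052). Agt, angiotensinogen, rose to 4.35 ± 0.851 FPKM, against 2.11 ± 0.0288 FPKM in control (limma adjusted p = 0.00362). The third call was that of Hamp, which encodes the iron hormone hepcidin and had 9, 4 and 6 reads in the shGDF11 libraries, against 1, 1 and 3 reads in the control libraries. All control libraries were at or under the floor of 3 reads, and the gene passed the filter through its shGDF11 level, so its rise is not read as a result. That call was lost under 7 of 14 alternatives. Lbp, which binds bacterial lipopolysaccharide, was at 3.07 ± 0.153 FPKM in shGDF11 and 2.41 ± 0.23 FPKM in control, just outside the threshold (limma adjusted p = 0.0518). It was called as higher under 5 of 14 alternatives. The protease inhibitor gene A2m was not called either (limma adjusted p = 0.104), but it was called as lower without the variance trend and by limma voom. The metallothionein gene Mt2 (0.765 and 1.64 FPKM in shGDF11 and control) was not called (limma adjusted p = 0.0937).

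Of 36 genes of the cytokines and factors that act on acute-phase genes, 32 were tested, of which 8 fell and 4 rose (median log2 fold change -0.16). Il6, the main cytokine of the acute phase, fell to 0.505 ± 0.199 FPKM in shGDF11, against 1.79 ± 0.497 FPKM in control (log2 fold change -1.18, limma adjusted p = 0.00989). Its shGDF11 mean was close to the filter of 0.5 FPKM. The size of its change depends on the setting, from -1.85 to -0.88 over 14 alternatives, and the call held under each. Lif, a cytokine of the interleukin 6 family, fell to 3.14 ± 0.292 FPKM in shGDF11, against 5.97 ± 0.585 FPKM in control (limma adjusted p = 0.00171). Il1a was at 0.476 ± 0.155 FPKM in shGDF11 and 1.38 ± 0.0465 FPKM in control. It passed the filter of 0.5 FPKM through its control level, so its fall is not read as a result. Nfkbiz, an NF-kB cofactor needed for Lcn2 induction in mouse cells, fell to 4.26 ± 0.546 FPKM, against 8.49 ± 0.73 FPKM in control (limma adjusted p = 0.00141). Nfkb2 and Relb, subunits of NF-kB, fell by 0.69 and 0.52 on the log2 scale (limma adjusted p = 0.00384 and 0.0111). The other falls were those of Rela, a further NF-kB subunit, and Tlr2, a receptor for microbial lipids (log2 fold changes -0.52 and -0.76).

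Cytokine receptor genes of the list were split. Il6st, Il1r1 and Lifr were among the 4 rises, and Il6ra, Il1rap, Osmr, Il11ra1, Il17ra and Tnfrsf1a were not called. The uncalled receptors were named after their values were seen. Il6st, the shared receptor chain gp130, rose to 36.9 ± 1.98 FPKM in shGDF11, against 27.6 ± 2.25 FPKM in control (limma adjusted p = 0.00939). Il1r1 rose to 6.10 ± 0.423 FPKM, against 4.30 ± 0.16 FPKM in control (limma adjusted p = 0.00605). Lifr and Stat3 had log2 fold changes of 0.43 and 0.18, and both calls were lost without any 1 shGDF11 library. That of Stat3 was also lost without control replicate 2 or 3. The fall of Rela was likewise not called without any 1 shGDF11 library or control replicate 2. The C/EBP genes Cebpa, Cebpb and Cebpd were not called. Cebpa was at 2.73 ± 0.74 FPKM in shGDF11 and 4.99 ± 1.77 FPKM in control (log2 fold change -0.74, limma adjusted p = 0.0743), with overlapping groups. It was called as lower by limma voom, with the replicate block and without control replicate 3. Cebpb was at 19.9 ± 2.26 FPKM in shGDF11 and 30.0 ± 9.81 FPKM in control (limma adjusted p = 0.103), with no overlap between groups, and it was called as lower without control replicate 3 and by limma voom. Cebpd was at 10.2 ± 1.13 FPKM in shGDF11 and 11.7 ± 2.37 FPKM in control (limma adjusted p = 0.428). The C/EBP genes were named after their values were seen.

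**Figure D4:**
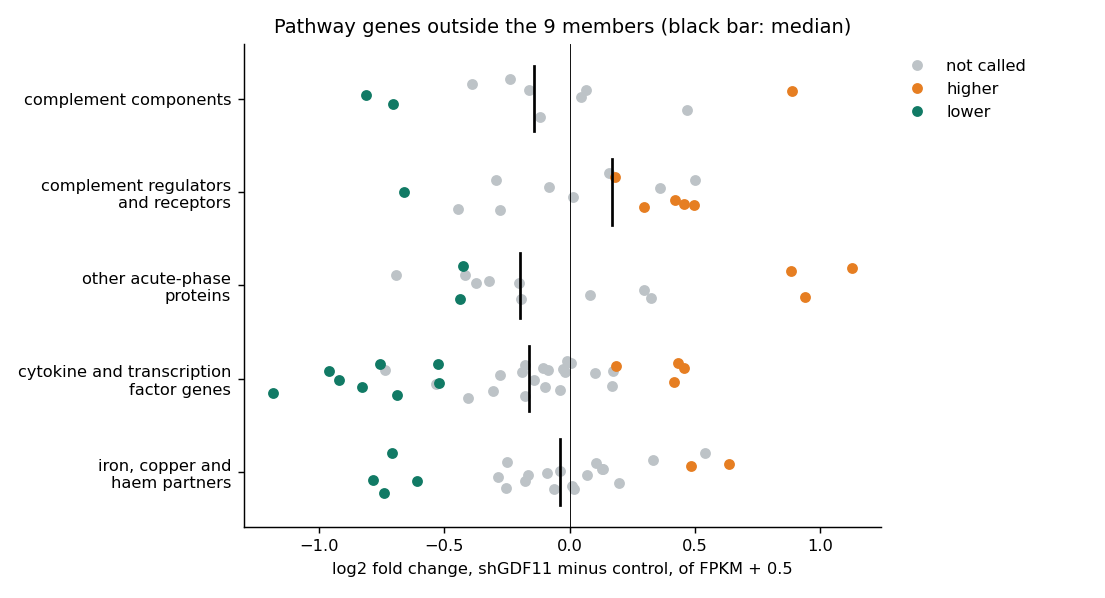
Log2 fold change (shGDF11 minus control, of FPKM + 0.5) of tested genes in 5 lists outside the 9 genes, 1 point per gene, with the median as a black bar. Orange genes rose, green genes fell and grey genes were not called. The medians run from -0.20 for other acute-phase proteins to 0.17 for complement regulators and receptors, and Il6 lies furthest to the left.

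Lcn2, Hp, Cp and Steap4 all touch iron or copper. Of 26 genes for iron, copper and haem handling, 23 were tested, of which 4 fell and 2 rose (median log2 fold change -0.04). Slc40a1, the iron exporter ferroportin, fell to 7.20 ± 0.197 FPKM in shGDF11, against 12.1 ± 0.352 FPKM in control (limma adjusted p = 0.000571). Tfrc, the transferrin receptor, fell to 30.0 ± 2.32 FPKM, against 50.4 ± 2.69 FPKM in control (limma adjusted p = 0.00106). Mmp9, a protease that can form a complex with lipocalin 2, fell to 1.99 ± 0.202 FPKM, against 3.29 ± 0.167 FPKM in control (limma adjusted p = 0.00446). Atp7b, a copper pump, fell by 0.78 on the log2 scale (limma adjusted p = 0.0171), and that call was lost without shGDF11 replicate 3.

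The rises in that list were those of Ftl1 and Steap1. Ftl1, ferritin light chain, rose to 438 ± 63.7 FPKM in shGDF11, against 281 ± 29.7 FPKM in control (limma adjusted p = 0.0114), and near-identical copies in the genome can share its reads. Steap1 rose to 10.3 ± 1.26 FPKM, against 7.18 ± 0.788 FPKM in control (limma adjusted p = 0.0188). Its call was lost without shGDF11 replicate 1 or 2 or control replicate 2. Steap2 was at 2.71 and 2.05 FPKM in shGDF11 and control and was not called (limma adjusted p = 0.0566), nor was the ferric reductase gene Cybrd1 (limma adjusted p = 0.0729). Each was called as higher under 2 of 14 alternatives, and Cybrd1 passed the filter through its shGDF11 level. Slc22a17, which encodes a lipocalin 2 receptor, was at 9.45 ± 1.22 FPKM in shGDF11 and 9.37 ± 1.77 FPKM in control, and was named after its values were seen.

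Genes nearest to Lcn2 in pattern were found by the Euclidean distance of log2(FPKM + 0.5), centred on each gene, over the 6 libraries. The 5 nearest protein-coding genes were 2210407C18Rik (distance 0.137), the chemokine genes Ccl20 (0.141) and Ccl7 (0.144), the smooth muscle actin gene Acta2 (0.232) and the oxidase gene Ero1l (0.236). Ccl20 had 1.58, 1.59 and 1.48 FPKM in the shGDF11 libraries, against 4.57, 4.90 and 5.56 FPKM in the control libraries. Of the 9 genes, Saa3 lay closest to Lcn2 (distance 0.611, with 66 protein-coding genes nearer), followed by Hp (0.635, with 73 nearer). The measure compares both the size of the difference between groups and the spread within them, and with 6 libraries many genes lie close together. Acta2 belongs to the smooth muscle markers, of which 4 of 8 fell, against 13.1% of all tested genes. The calls of Acta2 and Cnn1 held under all 15 alternatives, and those of Tagln and Myh11 were lost under 7 and 6 of 14, including without shGDF11 replicate 1 or 3 or control replicate 2 or 3, and for Tagln also without shGDF11 replicate 2. The part of smooth muscle markers in the difference of Lcn2 was not tested.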

How the data were processed

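RNA-seq libraries, 3 shGDF11 and 3 control, were grouped by their treatment label. The authors deposited FPKM values per gene, with gene names, positions and lengths. Reads passed through CASAVA 1.8, HISAT2 2.0.5 and featureCounts 1.5.0-p3 on GRCm38 (mm10), per the submitters' processing notes, which give no roles. No source used here states the annotation release, the strand setting or how shared reads were counted. Coordinates follow the deposited table, and 53585 of 54495 identifiers had the same ones in GENCODE M21.

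FPKM times gene length, with 1 depth per library, gave whole reads for 100% of positive values within 0.05. These recovered reads gave each library's depth, and intervals on them cover counting error only. The test was limma 3.58.1 in R 4.3.3, two-sided, with a trended prior variance, run on log2 values of deposited FPKM + 0.5. It took the 15418 genes averaging 0.5 FPKM or more, and a call needed a Benjamini-Hochberg adjusted p under 0.05. Without strand, reads of overlapping antisense genes cannot be told apart. The fit was also run on simulated reads with the same spread beyond counting error for every gene. Real genes need not share a spread, and nothing is read from that run.

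The 9 genes, the lists and the motifs were chosen with earlier results of these data known. Named list genes are among the 8 tested ones a list with the smallest p, or complete a count of calls, and any others are marked. The values of 1 complement regulator are not reported here. Other settings tried were pseudocounts of 0.1 and 1, filters of none and 5 FPKM, TPM and median-of-ratios scaling, no variance trend, limma voom on reads, blocking on replicate number, and leaving out each library. Transcript sharing was counted on GENCODE M21 as runs of 50 bases. Tables and figures used Python 3.11.15.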

Additional observations from a re-analysis of the deposited data

How the results depend on the processing

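The directions of the 8 tested genes among Lcn2, Saa3, Hp, Ptx3, Steap4, Cp, C3 and C4b were the same under every alternative that could test them, and calls changed only for C4b and Cp as given above. At a mean of at least 5 FPKM only 4 of them were tested, of which 1 rose and 2 fell, and 1474 genes rose over all. At that filter 0 complement components and 0 acute-phase proteins rose, 1 acute-phase protein fell, 5 cytokine and factor genes fell and 2 iron genes fell; fewer genes were tested there. Rescaling to TPM left 1315 genes lower over all and 1 acute-phase protein lower, and 66.2% of calls were higher, against 52.4%. The median log2 fold change over all tested genes was 0.09 with TPM, against 0.01 in the main fit. What lies behind that shift was not tested. With no filter on low values 2 complement regulators rose and 2 fell, and 1 acute-phase protein fell. By limma voom on recovered reads 5060 genes were called, 2 complement components rose, 4 acute-phase proteins fell and 4 iron genes rose, and 2 components rose without the variance trend.

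Leaving out 1 library gave 1256 to 2241 rises and 1072 to 1992 falls over all genes, 1 to 2 rises among the 9 genes, 1 to 6 rises among complement regulators, 1 to 3 falls among acute-phase proteins, 2 to 4 rises among cytokine and factor genes and 1 to 2 rises among iron genes. Without any 1 shGDF11 library both counts over all genes were more than 1.5 times under the 2227 rises and 2026 falls.

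Same-numbered libraries did not deviate together, with correlations of their deviations of 0.0153, 0.0149 and -0.0521 for numbers 1, 2 and 3. The labels do not say whether the numbers pair the samples, and correlations over 3 libraries a group cannot settle it. With the replicate number as a block 3223 genes were called, against 4253 without it, and 3 complement regulators rose, against 5. Counts of Cfb, Saa1 and Saa2 were too low for a fold at this depth.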

Other observations

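Of 10 genes of mesothelium and epicardium, the cell layer that covers the heart, 7 were tested, of which 1 rose and 2 fell, against 14.4% and 13.1% of all tested genes. Upk3b, a uroplakin gene, was at 1.17 ± 0.122 FPKM in shGDF11 and 0.396 ± 0.0386 FPKM in control. It passed the filter of 0.5 FPKM through its shGDF11 level, so its rise is not read as a result. The keratin genes Krt8 and Krt19 fell. Krt8 was at 26.5 ± 0.882 FPKM in shGDF11 and 36.4 ± 3.29 FPKM in control (limma adjusted p = 0.00708). Krt19 was at 11.1 ± 1.14 FPKM in shGDF11 and 15.7 ± 1.58 FPKM in control (limma adjusted p = 0.0142), and its call was lost without shGDF11 replicate 1 or 3 (adjusted p up to 0.0552 over 15 alternatives). Wt1, an epicardial transcription factor, was at 1.04 to 1.46 FPKM in shGDF11 and 1.32 to 1.40 FPKM in control.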
